A study of Homo sapiens with 3 samples.

Results

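CTBP2 is one of the vertebrate C-terminal binding proteins, NADH-binding corepressors that DNA-bound repressors recruit to genes. It was taken here together with 9 partners of the complexes that it forms, making 10 genes of the 20044 named on the array. Their 18 probes, of 47309 probes on each array, were found by the platform's gene symbol and are described one by one. The genes were chosen on readouts of these same arrays, because the brightest CTBP2 probe was among the lowest in PARP1-depleted cells and the CTBP2 probes gave different answers. Their ratios to the control are therefore given as a description and carry no test.

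The arrays were Illumina HumanHT-12 V4 BeadChips, which read each transcript with probes of fixed design, hybridized with RNA from H2030-BrM3 cells. H2030-BrM3 was derived from H2030, an established human line of lung adenocarcinoma, by selecting cells that form brain metastases. Cells with PARP1 hairpin 1 and cells with PARP1 hairpin 2 gave 1 array each, and cells with a non-targeting hairpin, the control, gave 1 array. The short hairpin RNAs lower the transcript of PARP1, the enzyme that builds poly(ADP-ribose) at DNA breaks, and the series was deposited as a search for genes that depend on it. All 3 cultures, each with another hairpin, grew for 1 day in RPMI medium with 10% fetal bovine serum. The labels do not say whether the lines were clones.

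CtBP proteins have no DNA contact of their own that is specific for sequence. ZEB1, a zinc-finger repressor of epithelial genes, and ZNF217, a Kruppel-like zinc-finger protein, bind DNA and bring them in. On CtBP sit RCOR1 (CoREST), a scaffold, KDM1A (LSD1), which removes methyl groups from histone H3 lysine residues, the histone deacetylases HDAC1 and HDAC2, and EHMT1 (GLP) and EHMT2 (G9a), methyltransferases that place the repressive mark on H3. Through this assembly CtBP is best known for silencing E-cadherin and other epithelial genes and some pro-apoptotic genes. CTBP2 also encodes RIBEYE, a protein of synaptic ribbons, from a transcript with another start.

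RefSeq promoter windows were found for all 10 genes. CTBP2, on the minus strand of chromosome 10 (chr10:124984317-125162463 in GRCh38.p14), had 5 annotated start windows spread over 155.3 kb, each running from 250 bases before a start to 50 bases after it. The outermost windows are printed to show how far apart the transcripts of the gene with the lowest member probe can begin. Both CTBP2 probes with a usable ratio were designed on 1 transcript. Whether the starts bear on how these probes differ was not tested. They are given 5′ to 3′ on the strand of the gene, with the bases from the annotated start on in capitals. The first is at chr10:125160981-125161280 and the second at chr10:125005969-125006268.
CTBP2 upstream start: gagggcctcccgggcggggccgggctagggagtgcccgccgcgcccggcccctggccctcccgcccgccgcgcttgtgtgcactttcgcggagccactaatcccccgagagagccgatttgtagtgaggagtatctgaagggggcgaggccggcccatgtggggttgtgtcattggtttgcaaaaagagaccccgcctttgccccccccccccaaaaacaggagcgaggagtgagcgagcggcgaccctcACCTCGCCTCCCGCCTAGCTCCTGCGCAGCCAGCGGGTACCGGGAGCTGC
CTBP2 downstream start: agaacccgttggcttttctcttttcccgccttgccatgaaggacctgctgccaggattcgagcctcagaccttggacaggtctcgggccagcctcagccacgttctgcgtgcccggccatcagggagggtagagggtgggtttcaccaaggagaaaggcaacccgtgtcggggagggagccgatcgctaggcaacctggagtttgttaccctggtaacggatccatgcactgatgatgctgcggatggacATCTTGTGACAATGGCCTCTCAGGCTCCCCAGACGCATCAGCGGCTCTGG
The upstream window held 69.7% G and C and the downstream window 59.7%. Which start each probe's transcript uses was not analysed here, and the sequences of the probes were not used.

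A probe was taken as above background where its detection p, its rank among negative control probes, was under 0.01. This held on every array for 15706 of the 47309 probes, and the median signal was 152.2 with hairpin 1, 161.7 with hairpin 2 and 153.6 in the control. PARP1, read by 1 probe, had signals of 1312 with hairpin 1 and 765.8 with hairpin 2, against 4365 in the control. After normalization that left 28.3% and 12.9% of the control level. Of the markers of the labelled cell type, EPCAM, KRT8 and KRT18 were above background on all arrays, while KRT7, KRT19 and CDH1 and the lung markers NKX2-1, NAPSA, SFTPB and SFTPC were above it on none. Of 4 mesenchymal markers, VIM and CDH2 were above background on all arrays and FN1 and ZEB2 on none. VIM, a mesenchymal filament, had log2 ratios of −0.06 and −0.04 with hairpins 1 and 2. CDH2 (N-cadherin) had 0.82 and −0.01, and its part in the results was not tested. Among 8 markers of blood cells, endothelium and fibroblasts, the collagens COL1A1 and COL3A1 were above background on all arrays and the other 6 on none.

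Of the 18 member probes, 9 were above background on all 3 arrays, 1 on a single array and 8 on none. The 9 probes covered 7 of the 10 genes. ZEB1, RCOR1 and EHMT1 had no probe that was above background throughout. Genes whose probes stayed near background have no usable ratio here, so only their signals are given.

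**Figure D1:**
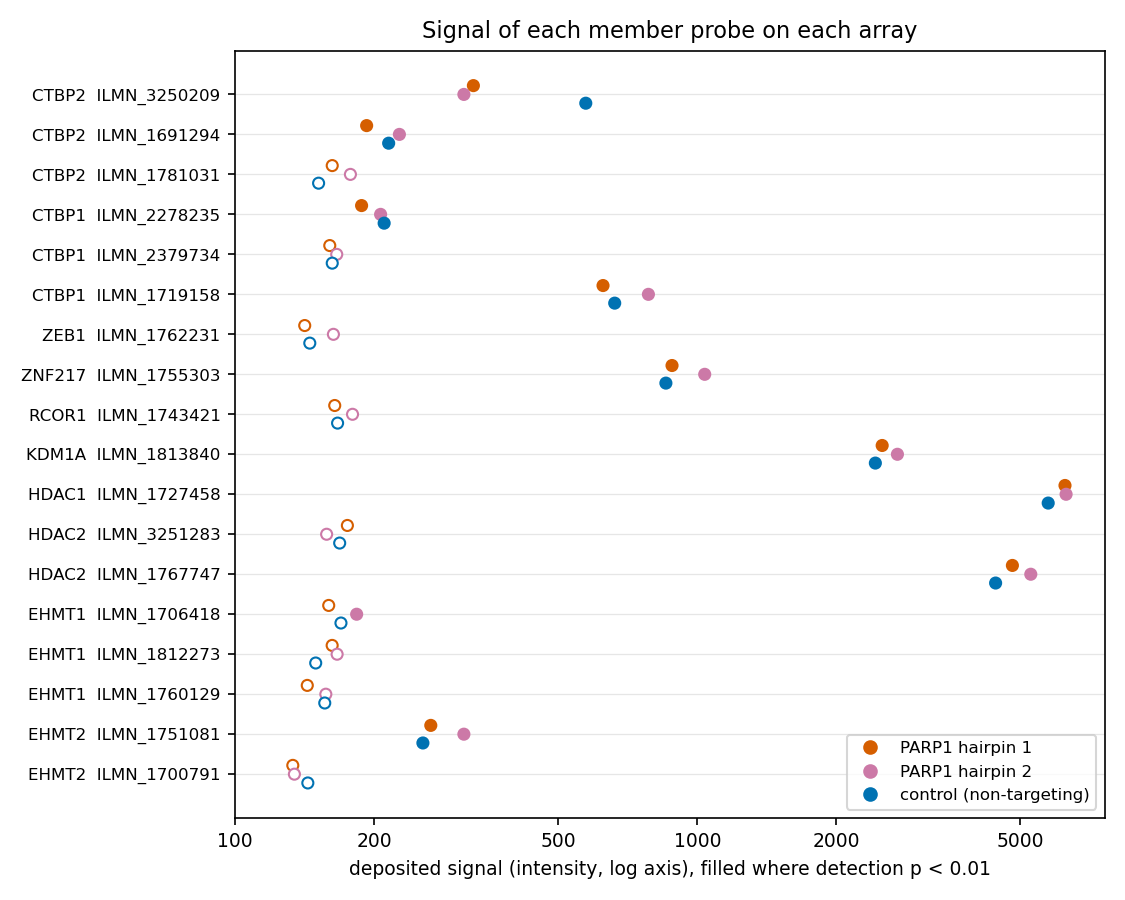
Deposited signal (intensity, log axis) of each of the 18 member probes with PARP1 hairpin 1, PARP1 hairpin 2 and the control, 1 point per array. Filled points had a detection p under 0.01. Only the CTBP2 probe ILMN_3250209 has both hairpin points far left of its control point, at 327.7 and 312.6 against 573.7.

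The brightest CTBP2 probe was lower with both hairpins. Probe ILMN_3250209, designed on the transcript NM_001329, gave signals of 327.7 with hairpin 1 and 312.6 with hairpin 2, against 573.7 in the control. Its detection p was 0 on every array, so the difference lies within the measurable range. The normalized log2 intensities were 7.74 and 7.34 with hairpins 1 and 2, against 8.89 in the control. This gave log2 ratios of −1.15 and −1.55, which left 45.2% and 34.2% of the control level. The mean log2 ratio was −1.35 ± 0.28 (SD over the 2 hairpins, against 1 control array), 2.54-fold lower. Among the 15706 probes above background throughout, the mean ratio of this probe ranked 2 from the lowest, after that of PARP1 at −2.39. For scale, the 2584 probes within 0.5 log2 units of its intensity, itself included, had ratios with an SD of 0.22 with hairpin 1 and 0.23 with hairpin 2.

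Both hairpin values lay below the control, and hairpin 2, which left less PARP1, also left less signal at this probe. Hairpin 2 minus hairpin 1 was −0.40 there on the log2 scale. The same arrays chose the gene, so this difference too is a description. The differences of the 2583 other probes of like intensity had an SD of 0.23. With 1 array per hairpin no test of it was possible.

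A second CTBP2 probe on the same transcript gave a much smaller difference. Probe ILMN_1691294, also designed on NM_001329, had signals of 192.6 with hairpin 1 and 226.7 with hairpin 2, against 214.9 in the control. The control lay between the hairpins. Detection p-values were 0.0039, 0.0013 and 0.0026 with hairpin 1, hairpin 2 and the control, so this probe lay nearer to background than ILMN_3250209. After normalization the log2 ratios were −0.40 and −0.13, with a mean of −0.27 ± 0.19 (SD over the 2 hairpins). Its hairpin difference was 0.27 on the log2 scale, opposite in sign to that of ILMN_3250209, and 36.4% of the 2911 other probes of like intensity were further apart. With median scaling the hairpin 2 ratio was 0.01, where that scaling had moved the median of all probes by 0.13 with hairpin 2.

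The third CTBP2 probe was not above background on any array. Probe ILMN_1781031, designed on NM_022802, the transcript of RIBEYE, had signals of 162.2 with hairpin 1 and 177.6 with hairpin 2, against 151.6 in the control. The detection p-values were 0.0377, 0.0143 and 0.158 on these arrays. Signals that close to background give no fold, although both hairpin signals were above that of the control.

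Over all genes with at least 2 probes above background throughout, CTBP2 had the widest disagreement between probes. The gap between the mean log2 ratios of its 2 usable probes was 1.08, and it ranked 1 of 2524 genes. These probes differed in brightness, with log2 intensities in the control of 8.89 for ILMN_3250209 and 6.54 for ILMN_1691294. The part of brightness in the gap was not tested. The median gap of these genes was 0.17 and the 95th percentile 0.54. Under 5 other ways of processing, a check added after the data were seen, the CTBP2 gap ranked 1 each time and lay between 0.78 and 1.09. CTBP2 was chosen with this disagreement known, so the rank describes the gene and was not tested. RefSeq lists 11 CTBP2 pseudogenes, on which a probe of the gene could also hybridize, and 0 probes of the array are named for them. Their part in the signals was not tested.

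**Figure D2:**
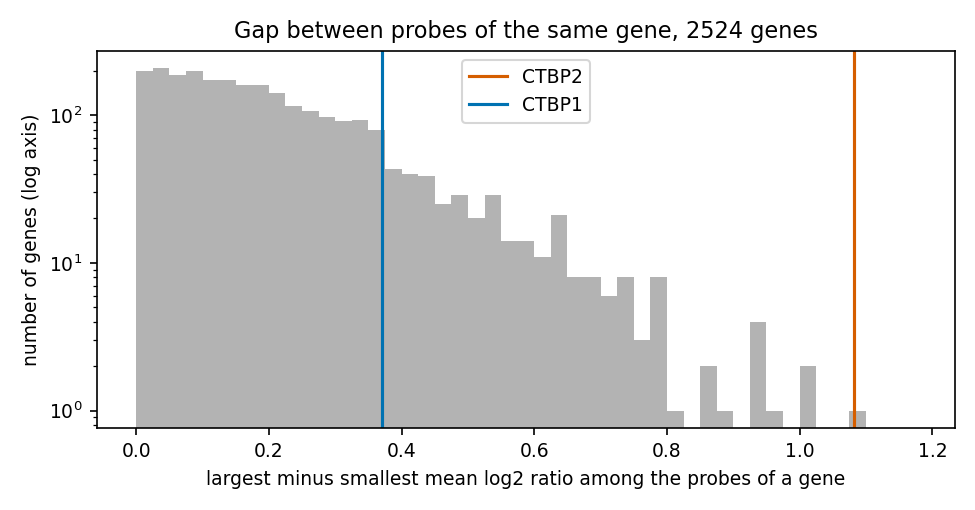
Number of genes (log axis) by the gap between the largest and smallest mean log2 ratio among their probes, for the 2524 genes with at least 2 probes above background on all arrays. The line for CTBP2, at 1.08, lies at the far right end and that for CTBP1, at 0.37, among the gaps of many other genes.

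**Figure D3:**
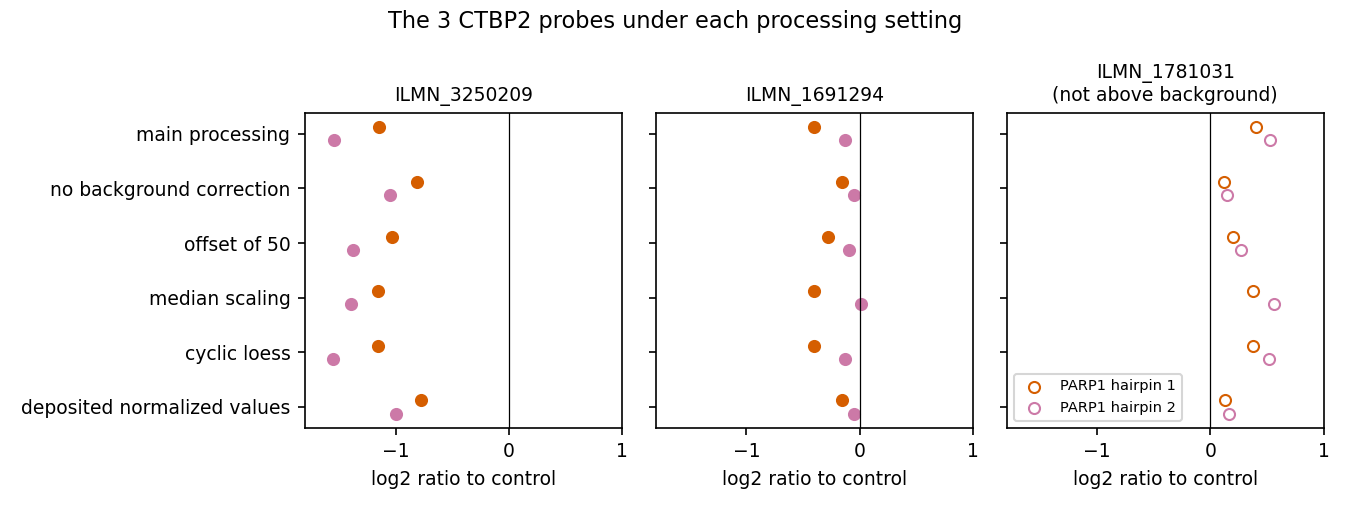
Log2 ratios to the control with hairpins 1 and 2 for the 3 CTBP2 probes under 6 processing settings, with open points for the probe not above background on any array. ILMN_3250209 is below the control in every setting, between −0.78 and −1.56, and ILMN_1691294 stays between −0.40 and 0.01.

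CTBP1, the paralog that shares most partners with CTBP2, was near the control by its brightest probe. Probe ILMN_1719158, designed on NM_001012614, had signals of 625.1 with hairpin 1 and 783.7 with hairpin 2, against 662.6 in the control, so the control lay between them. The log2 ratios were −0.11 and 0.05. A second probe on that transcript, ILMN_2278235, had signals of 187.8 and 206.4 with the hairpins, against 210.1 in the control, and log2 ratios of −0.42 and −0.38. Both hairpin ratios of this probe lay below 0 in all 6 settings, but its mean was −0.40 with background correction and −0.15 without it. CTBP1's probes differed by 0.37 in mean log2 ratio, a gap that ranked 358 of 2524 genes. It was 0.13 (rank 1158) without background correction and 0.13 (rank 1102) on the deposited normalized values. The third probe, ILMN_2379734 on NM_001328, gave 160.3 and 165.9 with the hairpins and 162.3 in the control and was not above background on any array.

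The DNA-binding partners showed no large difference where they could be measured. ZNF217 (probe ILMN_1755303) had signals of 881.6 with hairpin 1 and 1037 with hairpin 2, against 855.1 in the control. Its log2 ratios were 0.05 and 0.07, and 71.6% of the probes above background throughout had a larger mean ratio in size. ZEB1, by its only probe ILMN_1762231, gave signals of 141.5 and 163.2 with the hairpins and 145.1 in the control. With detection p-values of 0.432, 0.104 and 0.351 the ZEB1 probe was not well above background on any array. No statement on a ZEB1 difference can be made from it.

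The KDM1A demethylase was close to the control, and its scaffold RCOR1 was not measurable. KDM1A (probe ILMN_1813840) had signals of 2511 with hairpin 1 and 2709 with hairpin 2, against 2427 in the control. After normalization the log2 ratios were 0.07 and −0.04, on either side of 0. With median scaling the hairpin 2 ratio was 0.09, where the median of all probes was 0.13. RCOR1 (probe ILMN_1743421) gave 164.3 and 179.5 with the hairpins and 166.6 in the control, with detection p-values of 0.0260, 0.0117 and 0.0195, all short of the threshold.

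Both deacetylases were near the control as well. HDAC1 (probe ILMN_1727458) had signals of 6243 with hairpin 1 and 6277 with hairpin 2, against 5742 in the control, and log2 ratios of 0.12 and −0.02. HDAC2 (probe ILMN_1767747) had 4804 and 5265 with the hairpins, against 4419 in the control, and log2 ratios of 0.11 and 0.07. These raw signals were higher with both hairpins for both genes, while after normalization only HDAC2 had ratios above 0 with both. Median scaling was the exception, with a hairpin 2 ratio of 0.05 for HDAC1, where the median of all probes was 0.13. A further HDAC2 probe, ILMN_3251283, designed on the same transcript NM_001527, gave 175.0, 157.8 and 168.4 with hairpin 1, hairpin 2 and the control and was not above background on any array.

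Of the methyltransferases, only EHMT2 had a usable probe. EHMT2 (probe ILMN_1751081 on NM_025256) had signals of 265.1 with hairpin 1 and 312.6 with hairpin 2, against 254.9 in the control. Its log2 ratios of 0.12 and 0.26 were the highest mean among the members, at 0.19, and 26.6% of the probes above background throughout lay further from 0. Hairpin 2 minus hairpin 1 was 0.14 at this probe, and among 2712 other probes of like intensity this difference had an SD of 0.26. The other EHMT2 probe, ILMN_1700791 on NM_006709, gave 133.3 and 134.4 with the hairpins and 143.7 in the control, below the detection threshold throughout. EHMT1 had 3 probes on 1 transcript, with signals between 143.3 and 183.2 over all arrays. Among these 9 readings 1 was above background, ILMN_1706418 with hairpin 2 at 183.2, against 169.5 in the control, which just missed the threshold.

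Across the 9 member probes above background throughout, 3 were lower with both hairpins, 3 were higher with both and 3 lay on either side of the control. Over all 15706 such probes the shares were 32.3% lower, 33.5% higher and 34.2% of opposite sign. With median scaling the member probes split into 2 lower, 5 higher and 2 of opposite sign, where that scaling also gave 2999 lower and 6754 higher among all probes. The member probes' median mean ratio was 0.01, against −0.0007 over all probes. Being at least 1.5-fold lower with both hairpins held for 1 member probe, CTBP2 ILMN_3250209, and for 0.166% of all probes (26 of 15706). No member probe was at least 1.5-fold higher with both, which held for 0.14% (22 of 15706). With median scaling these counts over all probes were 12 lower and 30 higher. Since these ratios chose the genes, nothing is read from the members' counts.

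**Figure D4:**
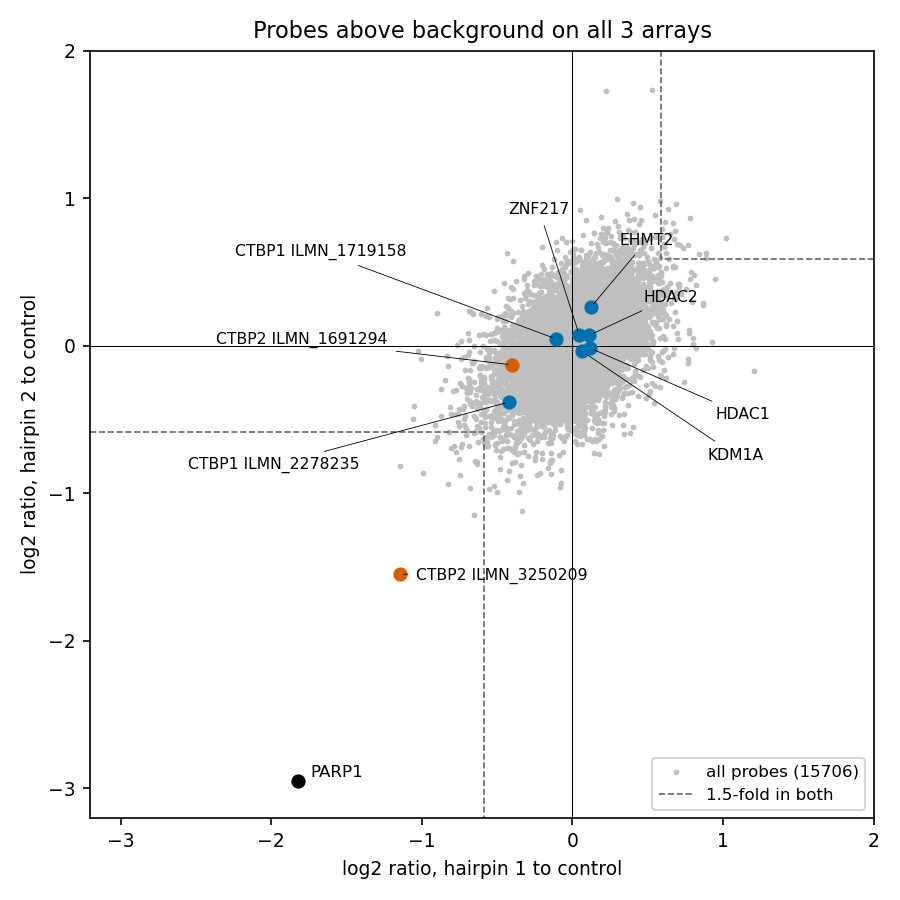
Log2 ratio to the control with hairpin 1 (horizontal) and hairpin 2 (vertical) for the 15706 probes above background on all 3 arrays, with CTBP2 probes in orange, other members in blue and PARP1 in black. CTBP2 ILMN_3250209, at −1.15 and −1.55, and PARP1, at −1.82 and −2.95, stand apart at the lower left, and the other 8 member probes lie in the central cloud.

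In the limma fit over all 18263 probes above background on at least 1 array, 2 probes (0.011%) passed a Benjamini-Hochberg adjusted p of 0.05, both lower. These were the PARP1 probe and CTBP2 ILMN_3250209, and since this contrast chose CTBP2 the call is not evidence for it. The fit rests on 1 residual degree of freedom, the difference between the hairpins, which left unequal amounts of PARP1. With 1 array each, that spread mixes hairpin and technical differences. It does not measure the spread between repeats of a hairpin or of the control. With only probes above background on all 3 arrays, or with no intensity trend in the prior variance, limma called 0 probes (625 and 951 at an unadjusted p under 0.05).

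The genes nearest to the brightest CTBP2 probe were sought by the Euclidean distance between pairs of log2 ratios, over 2 hairpin arrays that share 1 control. The 5 nearest were ANKRD20A1, SMIM10L2B, TCEA2, CLDN7 and TSC1, at distances of 0.64 to 0.75. CLDN7, a claudin of tight junctions, gave the pair −1.14 and −0.81, and TSC1, a subunit of the complex that restrains mTOR signalling, had −0.68 and −0.97. TCEA2, a transcription elongation factor, had ratios of −0.99 and −0.86. All 5 probes were dim, with mean log2 intensities between 6.10 and 6.74, so small signal differences lie behind these ratios. TSC1 had signals of 186.8 and 190.3 with hairpins 1 and 2, against 224.3 in the control. TCEA2 had 194.4 and 219.7, against 262.7. The search covered probes of other genes with 1 gene symbol that were above background on all arrays. None of these came nearer than 0.64. Because the CTBP2 probe was chosen for its low ratios, few probes could lie near it and nothing is read from the distance. CLDN7's signals were 196.3 with hairpin 1 and 236.3 with hairpin 2, against 281.9 in the control.

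Further subunits and recruiters of these complexes were compared with all probes tested, 0.011% of which passed the adjusted threshold in limma. Of 32 such genes, 29 had a named probe and 18 were above background on all arrays, of which 9 were higher with both hairpins, 3 lower with both and 6 of opposite sign, where 33.5% of all probes were higher and 32.3% lower. With median scaling 9 were higher and 2 lower, where 6754 of the 15706 probes were higher and 2999 lower. The median mean ratio of the 18 genes was 0.03, against −0.0007 over all probes. In limma 0 of the 18 passed in either direction (lowest adjusted p = 0.997), and 1 had an unadjusted p under 0.05, which held for 4.3% of all probes tested (785 of 18263). That gene was PHF21A (BHC80), a reader of unmethylated H3 in the KDM1A complex, with signals of 787.6 with hairpin 1 and 898.3 with hairpin 2, against 639.3 in the control. Its log2 ratios were 0.36 and 0.34. HMG20B (BRAF35), a DNA-bending subunit of that complex, had ratios of 0.40 and 0.19. ZMYM2, a zinc-finger protein of the complex, had 0.35 and 0.26 by its brightest probe and 0.07 and 0.36 by another. ZNF644, a zinc-finger partner of EHMT1 and EHMT2, had 0.16 and 0.30 by its brightest probe and −0.02 and 0.25 by another. RCOR2 and RCOR3, the paralogs of the unmeasured RCOR1, were within 0.10 of the control on the log2 scale, at −0.04 and 0.03 for RCOR2 and −0.09 and −0.03 for RCOR3. ZEB2, the paralog of ZEB1, was not above background on any array.

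The remaining histone deacetylases were compared with all probes, of which 0.011% passed the adjusted threshold in limma and 4.3% the unadjusted one. Of 9 genes, HDAC5, HDAC10 and HDAC11 were not above background throughout and 6 were above background on all arrays. Of these, 2 were higher with both hairpins, 2 lower and 2 of opposite sign. Over all 15706 such probes 33.5% were higher, 32.3% lower and 34.2% of opposite sign. The median mean ratio of the 6 genes was 0.08, against −0.0007 over all probes. None passed in limma, adjusted or at an unadjusted p under 0.05. HDAC3, the deacetylase of the NCoR complex, had signals of 1604 and 1822 with the hairpins, against 1477 in the control, and log2 ratios of 0.14 and 0.12. HDAC6, a cytoplasmic tubulin deacetylase, had ratios of 0.12 and 0.07. HDAC8 had −0.44 and −0.11, and HDAC7, a class IIa deacetylase, had −0.03 and −0.19. HDAC9, another class IIa member, named after its values were seen, lay on either side of the control, at −0.32 with hairpin 1 and 0.47 with hairpin 2.

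Genes reported as CtBP targets were compared with all probes in the same way. Of 12 genes, 11 had a named probe and 9 were above background throughout, with 3 higher with both hairpins, 4 lower and 2 of opposite sign. Over all 15706 such probes 33.5% were higher, 32.3% lower and 34.2% of opposite sign, and nothing is read from the split of these 9 genes. Their median mean ratio was −0.03, and 0.02 with median scaling, which had moved the median over all probes to 0.06. In limma 0 passed the adjusted threshold and 1 had an unadjusted p under 0.05, against the 4.3% of all probes. This was PERP, a tetraspan protein that p53 induces, with signals of 2111 with hairpin 1 and 2681 with hairpin 2, against 1793 in the control, and log2 ratios of 0.25 and 0.40. PMAIP1 (NOXA), a pro-apoptotic BH3-only protein, had ratios of 0.35 and 0.21 by its brightest probe and 0.08 and 0.24 by another. BIK and BAX, pro-apoptotic genes of the same list, were lower with both hairpins. BIK had −0.18 and −0.36, and BAX had −0.06 and −0.27 by its brightest probe. The repair gene BRCA1 had 0.23 and 0.28 by its brightest probe. CDKN1A, the cell-cycle inhibitor p21, had −0.30 and −0.19. CDH1 (E-cadherin), the best-known target, gave signals of 138.0 and 164.8 with the hairpins and 160.8 in the control, and its probe was not well above background on any array.

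Epithelial genes reported as ZEB1 targets were mostly near background. Of 20 genes, 19 had a named probe and 5 were above background on all arrays, with 3 lower with both hairpins, 1 higher and 1 of opposite sign. Over all 15706 such probes 32.3% were lower, 33.5% higher and 34.2% of opposite sign. The median mean ratio of the 5 genes was −0.23, against −0.0007 over all probes. With median scaling it was −0.15, against 0.06 over all probes. With 5 of 20 genes measured, no direction is read from these values. In limma 0 passed the adjusted threshold and 2, CLDN7 and OVOL2, had an unadjusted p under 0.05, against the 4.3% of all probes. OVOL2, a transcription factor of epithelial cells, had signals of 361.2 with hairpin 1 and 416.4 with hairpin 2, against 435.7 in the control. The brightest probe of KRT18, a keratin of simple epithelia, gave log2 ratios of −0.18 and −0.28. EPCAM, an epithelial adhesion protein, had 0.06 and 0.05 by its brightest probe, while its probe ILMN_3249032 gave −0.46 and −0.07.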

How the data were processed

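Bead-averaged intensities per probe were deposited by the authors on a linear scale, made with GenomeStudio per the submitters' processing notes, and the values show neither background subtraction nor scaling between arrays. A detection p-value per probe was deposited beside each intensity, per the file headers. The second deposited table holds intensity values that, judged by the values, are the same signals after quantile normalization. The genome build and the GenomeStudio version were not given in the sources used here.

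The 14 rows without a probe ID were left out. With limma 3.58.1 (R 4.3.3) the signals were background-corrected by a normal-exponential model whose negative controls were inferred from the detection p-values, 16 was added, and the arrays were quantile normalized and put on the log2 scale. The limma fit (lmFit, eBayes with an intensity trend) covered all 18263 probes that were above background (detection p under 0.01) somewhere, with Benjamini-Hochberg adjustment over all of them. It takes the lone control array to vary like the hairpin arrays, and the median moderated standard error was 0.168. The code was also tested on simulated data. Counts by fold used probes above background on all arrays. Gene names came from the platform annotation (30106 with 1 symbol, 8 with several, 17195 with none), whose symbols were checked against RefSeq for GRCh38.p14 (0 updated). In the lists of other genes, each gene was taken by its brightest probe above background.

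The members and gene lists were chosen with earlier results of these data known. Named were all member probes, PARP1, the 5 genes nearest to CTBP2, up to 4 members of each list with the largest smaller ratio of the same sign with both hairpins, and CDH1. Genes outside this rule (RCOR2, RCOR3, ZEB2, HDAC9, BIK, BAX and the markers) were added as paralogs or list members or for the check of the labels, after their values were seen. All 3 arrays lay on 1 BeadChip, and their small number limits the precision. Tried as alternatives were the deposited normalized values, signals without background correction, 50 as the offset, cyclic loess or median scaling between arrays, weaker or stricter filters, no intensity trend, and each hairpin alone.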

Additional observations from a re-analysis of the deposited data

How the results depend on the processing

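The log2 ratio of the brightest CTBP2 probe stayed below 0 under all alternatives run. On the deposited normalized values it was −0.89, and with uncorrected background −0.93, against −1.35 as reported, and leaving out either hairpin gave −1.55 to −1.15. The cause of the smaller values was not tested. Limma called 0 probes with the filter requiring all 3 arrays and 0 without an intensity trend, and 2 or 3 under the other settings. The count of probes 1.5-fold higher with both hairpins, 22 in the reported setting, was 0 with uncorrected background, 1 with an offset of 50, 0 on the deposited values, 134 with no filter on dim probes, 105 with probes above background on any array, and 99 to 144 with a single hairpin. For 1.5-fold lower, 26 in the reported setting, the counts in that order were 2, 7, 2, 323, 177 and 136 to 157, and median scaling gave 12. Requiring both hairpins by construction gives fewer probes than 1 hairpin. Under the 5 alternatives that kept both hairpins, the other 8 member probes above background throughout gave 40 values, of which 34 moved by less than the SD between the hairpins and 1 changed sign, with the largest shift 0.25. No paired analysis was possible because the control is a single array. Signals near background limit ZEB1, RCOR1 and EHMT1, for which these arrays give no ratio.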
